A study of Mus musculus with 9 samples.

Results

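The nuclear-encoded subunits of the mitochondrial respiratory chain and ATP synthase were followed across 9 libraries of engineered skeletal muscle. Members were the rows whose symbol begins with a subunit prefix of complexes I to V or of cytochrome c (Ndufa, Ndufb, Ndufc, Ndufs, Ndufv, Sdha to Sdhd, Uqcr, Cyc1, Cycs, Cox4 to Cox8 and Atp5), leaving out symbols marked -ps and the assembly factors Ndufaf and Sdhaf. This rule took 93 of 40879 listed symbols, and 84 of the 93 had enough counts to be tested among 11980 genes. The constructs were C2C12 myoblasts, a wild-type mouse line that fuses into myotubes when serum is changed, embedded in matrix prepared from muscle tissue, cultured in growth medium (2 days) and then in differentiation medium with 10% equine serum (10 days).

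There were 3 libraries in each group. Irradiated constructs received 1 X-ray dose of 20 Gy, which the study uses to induce senescence. Cocultured constructs were not irradiated and were kept in a dish with an irradiated construct, and only the non-irradiated construct was collected. Normal constructs were neither irradiated nor kept with an irradiated one. According to the study's design text, irradiated and normal constructs were cultured 2 to a dish and had 2 samples per condition, not 3. Dish partners are not named, and p-values therefore reflect only how far these libraries differ, which may be technical. The comparisons ask what irradiation does to the construct itself and what exposure to an irradiated neighbour does. Libraries are named below by group and replicate number.

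The respiratory chain moves electrons from NADH (complex I) and succinate (complex II) through ubiquinone, complex III and cytochrome c to oxygen at complex IV, and the proton gradient this builds drives ATP synthase (complex V). Each complex except II combines catalytic core subunits, some of them made in the mitochondrion, with nuclear-encoded accessory subunits. In heart and skeletal muscle a few complex IV subunits come in a striated-muscle isoform (Cox6a2, Cox7a1, Cox8b) that is used beside or in place of the ubiquitous isoform (Cox6a1, Cox7a2, Cox8a).

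The promoters of these isoform genes are printed because the isoform ratios differed widely between libraries. Each runs from 250 bases before to 50 bases after the annotated start, 5′ to 3′ on the gene's strand, from RefSeq (GRCm38.p6). Capitals mark matches, on either strand, to 5 motifs: the NRF1 site (GCGCA and GCGC with any base between them), the ETS site CCGGAAG, the YY1 site AANATGGC, the core TATAAA, and the E-box CAGCTG of myogenic factors. The last 2 were chosen after the promoters had been read. Searches for an ERR site (TCAAGGTCA) and a MEF2 site (CTA and TAG with 4 bases between them) gave no match in these promoters. Cox6a2 is not among the promoter sequences used here.
Cox6a1, chr5:115348909-115349208, minus strand: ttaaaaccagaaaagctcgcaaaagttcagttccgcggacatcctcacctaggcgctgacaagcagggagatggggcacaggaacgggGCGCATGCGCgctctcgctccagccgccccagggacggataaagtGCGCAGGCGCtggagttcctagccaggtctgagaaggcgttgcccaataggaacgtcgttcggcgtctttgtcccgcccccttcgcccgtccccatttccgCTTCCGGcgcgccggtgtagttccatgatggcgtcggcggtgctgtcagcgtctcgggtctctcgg
Cox7a1, chr7:30183921-30184220, plus strand: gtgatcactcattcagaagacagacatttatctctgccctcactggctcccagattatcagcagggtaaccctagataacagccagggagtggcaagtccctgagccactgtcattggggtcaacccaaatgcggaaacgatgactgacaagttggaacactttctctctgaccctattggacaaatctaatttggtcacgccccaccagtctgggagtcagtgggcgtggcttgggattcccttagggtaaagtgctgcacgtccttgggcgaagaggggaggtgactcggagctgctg
Cox7a2, chr9:79759804-79760103, minus strand: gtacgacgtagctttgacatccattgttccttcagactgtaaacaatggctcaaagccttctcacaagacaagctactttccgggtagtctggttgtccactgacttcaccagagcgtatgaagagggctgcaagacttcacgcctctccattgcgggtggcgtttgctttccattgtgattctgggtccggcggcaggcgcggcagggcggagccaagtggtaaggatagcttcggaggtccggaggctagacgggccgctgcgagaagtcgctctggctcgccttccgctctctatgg
Cox8a, chr19:7217567-7217866, minus strand: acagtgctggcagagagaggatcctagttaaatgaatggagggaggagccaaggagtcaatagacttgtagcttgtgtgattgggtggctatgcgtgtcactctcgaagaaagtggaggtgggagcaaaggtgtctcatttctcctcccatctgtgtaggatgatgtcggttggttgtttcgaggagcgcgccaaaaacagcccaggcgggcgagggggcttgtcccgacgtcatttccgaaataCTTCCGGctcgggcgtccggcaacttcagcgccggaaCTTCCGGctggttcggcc
Cox8b, chr7:140900397-140900696, minus strand: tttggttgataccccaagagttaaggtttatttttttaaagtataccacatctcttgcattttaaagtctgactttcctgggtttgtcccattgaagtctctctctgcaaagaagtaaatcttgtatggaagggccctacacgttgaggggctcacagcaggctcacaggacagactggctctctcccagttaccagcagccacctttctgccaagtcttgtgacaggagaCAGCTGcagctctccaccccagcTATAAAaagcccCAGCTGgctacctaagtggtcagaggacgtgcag
The Cox6a1 promoter holds 2 NRF1 matches and an ETS match, and the Cox8a promoter holds 2 ETS matches. The muscle isoform Cox8b holds a TATAAA match and 2 E-box matches and none to NRF1, ETS or YY1. The Cox7a1 and Cox7a2 promoters hold none of the 7 motifs.

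Promoters were found for 72 of the 93 members. NRF1, ETS and YY1 motifs were each found in 17 of these, or 23.6%, against 7.17%, 12.9% and 7.46% of 17491 protein-coding genes and 11.8%, 20.7% and 10.6% of the 8805 tested genes with a promoter. At least 1 of the 3 was present in 44 of 72, a count that was not made for other genes and so has no background. The ERR motif was in 2.78% of member promoters against 0.377% of all promoters, MEF2 in 1.39% against 4.01%, TATAAA in 11.1% against 14.8%, and the E-box in 8.33% against 17.4%. Among promoters of tested genes these shares were 0.273%, 3.83%, 8.92% and 18.1%, so that the members held TATAAA less often than all promoters and more often than those of tested genes. A match is a run of letters and not evidence of binding.

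Library totals were 6485655 to 8290468 counts in irradiated, 7506605 to 8035763 in cocultured and 4840993 to 6607557 in normal libraries. Irradiated 1 and normal 3 stood apart from the rest of their groups. The 40 adult sarcomere genes took 15.5% of the counts of irradiated 1 and 19.9% of normal 3, against 1.33% to 3.60% elsewhere, and all mitochondrially encoded genes took 21.7% and 29.7%, against 5.77% to 13.4%. Scaling factors for library composition (TMM) were 0.728 and 0.556 in these libraries and 0.919 to 1.29 in the others, so members are given both as TMM-scaled CPM (the count scaled to library size) and, where it matters, per library total. QuantSeq reads only the 3′ end of a transcript, so CPM is not divided by length.

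Markers of muscle were present in every library: 9 to 11 of 12 myogenic genes had counts, and their summed level was 2131 to 3548 CPM in irradiated, 1633 to 2469 in cocultured and 1531 to 3895 in normal libraries. Myf6 had no count in any library. Of the 11 myogenic genes tested, DESeq2 called 1, Myf5, lower in irradiated than in normal and than in cocultured constructs. Over all tested genes it called 3.01% and 2.8% lower in these comparisons. No myogenic gene was called by edgeR or limma voom. Markers of other cell types differed between libraries. Summed over 8 endothelial genes, the level was 0.117 to 102 CPM in irradiated, 2.07 to 14.5 in cocultured and 5.45 to 123.4 in normal libraries, and irradiated 1 and normal 3 were highest, while Emcn was at 0 throughout. Summed over 6 erythroid genes, it was 1.06 to 112 CPM in irradiated, 0.414 to 19.2 in cocultured and 7.19 to 81.0 in normal libraries, again highest in irradiated 1 and normal 3, with Alas2 at 0 throughout. Of 8 cardiomyocyte genes, Tnnt2, which developing skeletal muscle also expresses, alone passed the filter, and Nppa, Myl7, Ryr2 and Gja5 were at 0 throughout. The summed level of that list was 296 to 383 CPM in irradiated, 140.4 to 499 in cocultured and 184 to 280 in normal libraries. The macrophage list reached 1.53 to 43.0 CPM in irradiated, 21.0 to 169 in cocultured and 107.5 to 460 in normal libraries, and the adipocyte list 0 to 12.1, 0 to 7.61 and 4.11 to 111. The Schwann and neural list reached 0 to 15.97 CPM in irradiated, 21.7 to 30.9 in cocultured and 37.2 to 97.3 in normal libraries. The part of these cells in the results below was not tested.

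**Figure D1:**
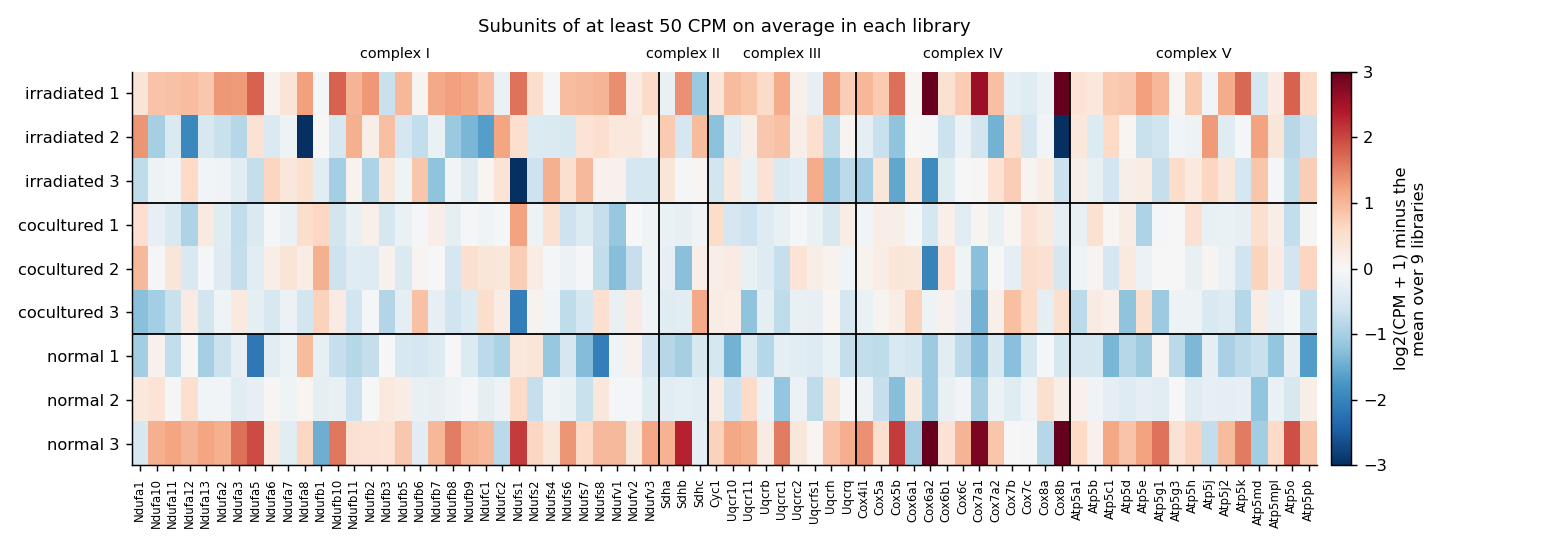
Level of each subunit with at least 50 CPM on average (72 genes of complexes I to V, columns, ordered by complex, with Cox7a2l not drawn) in each of the 9 libraries (rows), as log2(CPM + 1) minus the gene's mean over the libraries, with colours capped at 3 in either direction. Most columns are red in irradiated 1 and normal 3, and Cox6a2, Cox7a1 and Cox8b are the darkest there.

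Most abundant among complex I members was Ndufa2, an accessory subunit of the NADH-oxidising arm, at 662, 167 and 249 CPM in irradiated, 207, 202 and 244 in cocultured and 169.6, 254 and 556 in normal libraries. Ndufb8, an accessory subunit of the membrane arm, had 473, 91.4 and 188 CPM in irradiated, 162, 142 and 133 in cocultured and 198, 181 and 577 in normal libraries. For both genes irradiated 1 and normal 3 were the high samples of their groups and the cocultured libraries lay close together.

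In complex II, Sdhb, its iron-sulphur subunit, had 356, 96.1 and 131 CPM in irradiated, 116, 57.3 and 110.4 in cocultured and 67.8, 111 and 679.7 in normal libraries, with the highest value in normal 3. Sdha, the flavoprotein that oxidises succinate, had 88.6, 180.1 and 134 CPM in irradiated, 90.9, 87.3 and 80.5 in cocultured and 57.5, 83.4 and 217 in normal libraries. Here irradiated 1 was the lowest of its group and normal 3 the highest.

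In complex III, Uqcrh, the hinge protein near cytochrome c1, had 703, 174 and 130.5 CPM in irradiated, 209.7, 319.7 and 308 in cocultured and 258, 371 and 535 in normal libraries. Uqcrq, a small accessory subunit, had 334, 211 and 116 CPM in irradiated, 231, 186 and 139 in cocultured and 121, 196 and 426 in normal libraries. The groups overlapped for both.

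Cox6c, an accessory subunit of complex IV, had 844, 440.4 and 496.5 CPM in irradiated, 396.5, 459 and 424 in cocultured and 291, 474 and 1014 in normal libraries. Atp5g3, which encodes the c subunit of the ATP synthase rotor, had 621, 563 and 873 CPM in irradiated, 596, 586 and 531 in cocultured and 340.5, 600.2 and 803 in normal libraries. Atp5a1, the alpha subunit of the catalytic head, had 567, 534 and 482 CPM in irradiated, 365, 388 and 245 in cocultured and 302, 465 and 642 in normal libraries. With TMM all 3 irradiated values of Atp5a1 lay above the cocultured ones, and both groups overlapped with normal. Per library total irradiated 1 (410.4 CPM) lay below cocultured 1 and cocultured 2 (437.5 and 466.7 CPM), so that irradiated and cocultured overlapped.

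Cycs, the somatic cytochrome c that carries electrons to complex IV, had 51.3, 0 and 13.7 CPM in irradiated, 18.2, 40.9 and 27.5 in cocultured and 26.7, 13.4 and 118 in normal libraries. Cox7a2l, which joins complexes III and IV into supercomplexes, varied less, at 60.5, 47.7 and 79.1 CPM in irradiated, 64.9, 46.5 and 30.2 in cocultured and 68.4, 52.7 and 100.2 in normal libraries.

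Together the members took 1.64%, 1.34% and 1.41% of counts in irradiated libraries, 1.25%, 1.32% and 1.24% in cocultured and 0.726%, 0.939% and 1.40% in normal libraries. The exact 95% interval of the share in irradiated 1 was 1.63% to 1.65%, and intervals of this kind cover counting error only. By this measure irradiated 2 and the cocultured libraries lay below normal 3 and above normal 1 and normal 2. These shares depend on what the total holds. With mitochondrially encoded genes and the predicted gene Gm26917 removed from the total, the shares were 2.47%, 1.59% and 1.73% in irradiated, 1.49%, 1.55% and 1.47% in cocultured and 1.03%, 1.43% and 2.31% in normal libraries. Gm26917 alone took 12.01%, 4.76% and 5.28% of irradiated, 3.91%, 3.53% and 3.38% of cocultured and 23.9%, 27.4% and 9.47% of normal libraries.

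**Figure D2:**
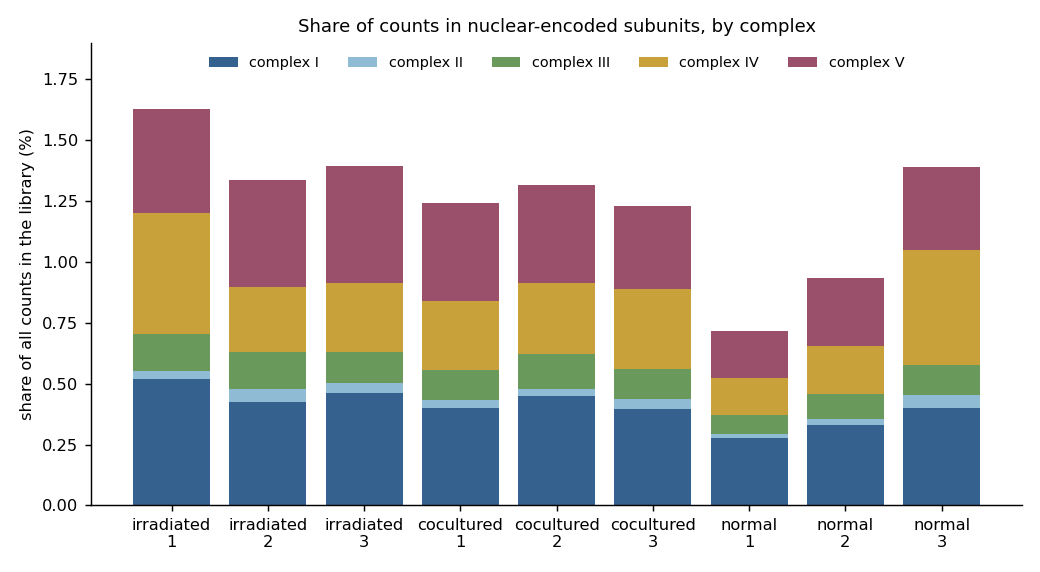
Share of each library's counts (y axis, percent of the library total) in nuclear-encoded subunits, stacked by complex, for 3 irradiated, 3 cocultured and 3 normal libraries; Cycs, Cox7a2l and the gene copies are not drawn. The share of all members is lowest in normal 1 (0.726%) and highest in irradiated 1 (1.64%), and complex IV is the widest band of normal 3.

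With TMM the excess of irradiated 1 and normal 3 was spread over many members. Among 73 members with at least 50 CPM on average, 40 (54.8%) were at least 2-fold higher in normal 3 than the mean of normal 1 and normal 2, against 11.3% of 3145 tested genes of that level. In irradiated 1, 33 members (45.2%) were at least 2-fold above the mean of irradiated 2 and irradiated 3, against 17.9% of those genes. Both conditions held for 25 members (34.2%) and for 6.65% of those genes. The size of this excess depends on the scaling: by library totals the median member stood at 1.36 times its group partners in normal 3, against 2.31 times with TMM, and the median of all 3145 genes at 0.552, against 0.936. In irradiated 1 the median member stood at 1.04 times its partners by library totals and 1.80 with TMM, and the median of those genes at 0.592 and 1.03. By library totals 16 members (21.9%) were at least 2-fold higher in normal 3 and 12 (16.4%) in irradiated 1, against 5.25% and 7.28% of those genes. At least 2-fold lower were 6 members (8.22%) in normal 3 and 12 (16.4%) in irradiated 1, against 43.1% and 39.2% of those genes. In irradiated 1 as many members were thus 2-fold lower as 2-fold higher by this scaling. In bulk libraries fewer cells of a type and less RNA per cell cannot be told apart. Median within-group spread (SD of log2 values) of the members was 0.743 in irradiated, 0.337 in cocultured and 0.759 in normal constructs, beside 0.656, 0.386 and 0.439 over all genes of that level.

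Apart from the muscle isoforms, the members furthest above their partners in normal 3 were Cox5b, a zinc-binding complex IV subunit (7.63-fold), Sdhb (7.60-fold), Ndufa5, an accessory subunit of the peripheral arm of complex I (7.29-fold), and Atp5o, the OSCP subunit of the ATP synthase stalk (4.96-fold). The same 4 genes were 8.47-, 3.13-, 3.51- and 5.99-fold above their partners in irradiated 1. At the other end, Ndufb1, Cox8a and Cox6a1 stood at 0.428, 0.461 and 0.511 times their partners in normal 3. These genes were picked by their ratios, which are given with no test.

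The muscle isoforms of complex IV ranged widely within the irradiated and normal groups. Within a pair the ratio does not depend on the scaling of the library. Cox6a2, the striated-muscle form of subunit VIa, made up 93.3%, 62.0% and 26.1% of Cox6a1 plus Cox6a2 counts in irradiated, 54.4%, 24.3% and 48.1% in cocultured and 53.4%, 39.1% and 97.8% in normal libraries. Its level was 3227, 362 and 100.1 CPM in irradiated, 256, 91.7 and 331 in cocultured and 173.5, 172 and 4735 in normal libraries. The library with the highest share in each of the irradiated and normal groups was the one with the most sarcomere counts. Cox6a1 was at 232, 222 and 284 CPM in irradiated, 215, 286 and 357 in cocultured and 152, 268 and 107 in normal libraries, with its lowest value in normal 3.

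Cox7a1, the muscle form of subunit VIIa, made up 37.6%, 25.3% and 12.2% of its pair in irradiated, 18.7%, 7.09% and 5.72% in cocultured and 9.28%, 9.37% and 42.9% in normal libraries. Cox8b, the muscle form of subunit VIII in mouse, made up 69.3%, 0% and 9.60% in irradiated, 11.7%, 9.23% and 25.1% in cocultured and 12.2%, 13.8% and 77.4% in normal libraries. In irradiated 2 none of 1782 counts of that pair was from Cox8b, with an exact 95% upper bound of 0.207%. Here too irradiated 1 and normal 3 were the high samples, and every group overlapped with the others.

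In 9 two-sided exact permutation tests of log2 isoform ratios (pseudocount 0.5, 3 libraries against 3), p was 0.2 to 0.8 and 0.75 to 0.80 after Benjamini-Hochberg adjustment, where this design cannot go below 0.1. The log2 ratio of Cox7a1 to Cox7a2 averaged -1.71 ± 1.07 in irradiated, -3.29 ± 1.02 in cocultured and -2.32 ± 1.65 in normal libraries (SD, n = 3 each), and the irradiated minus cocultured difference of 1.58 had p = 0.2 in the exact permutation test. That of Cox6a2 to Cox6a1 averaged 1.001 ± 2.66 in irradiated, -0.50 ± 1.004 in cocultured and 1.67 ± 3.31 in normal libraries (SD, n = 3 each). The Cox8b to Cox8a ratio averaged -4.62 ± 6.60 in irradiated, -2.59 ± 0.90 in cocultured and -1.24 ± 2.61 in normal libraries (SD, n = 3 each). The irradiated mean rests on irradiated 2, where Cox8b had 0 counts and the pseudocount set the log2 ratio of -11.80. In irradiated 1 and irradiated 3 it was 1.18 and -3.23.

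**Figure D3:**
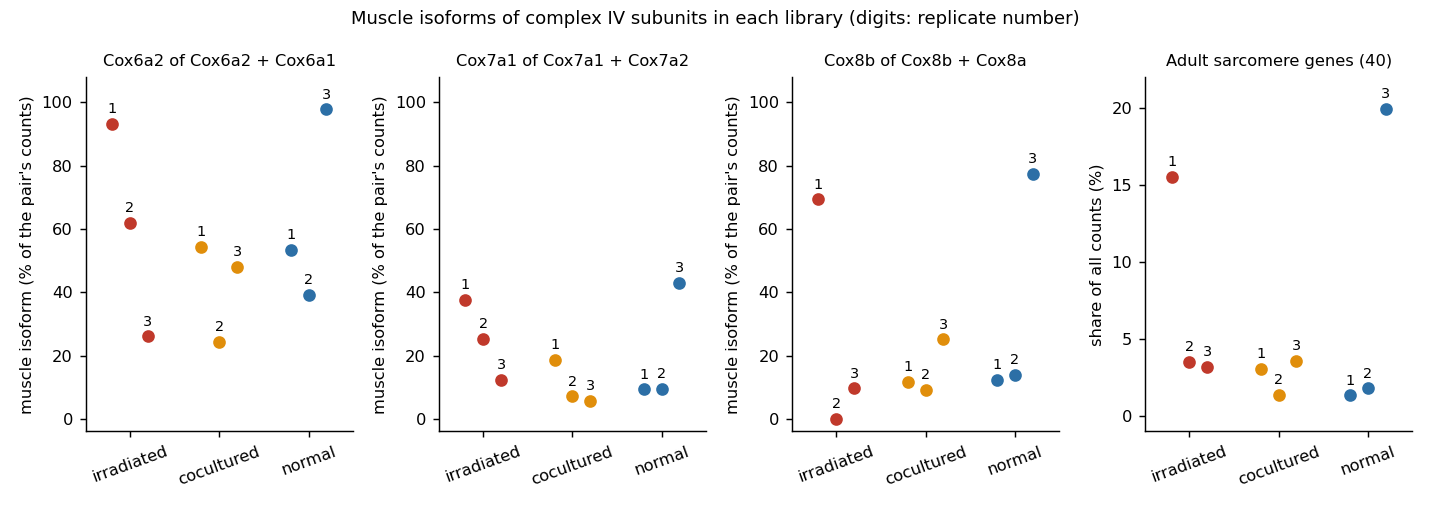
Muscle isoform as a percentage of the counts of its isoform pair (first 3 panels) and share of counts in 40 adult sarcomere genes (last panel) in each irradiated, cocultured and normal library, with digits giving the replicate number. Irradiated 1 and normal 3 are the highest points in every panel, at 93.3% and 97.8% for Cox6a2.

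Isoforms of other tissues were near 0. Cox4i2, the lung-type and hypoxia-responsive form of subunit IV, had 45 counts in cocultured 3 and none in the other libraries. Ndufa4l2, a hypoxia-induced relative of Ndufa4, had 13 counts in irradiated 1 and none elsewhere. Cox6b2, known from testis, had 17 counts in cocultured 2, 8 in normal 1 and none elsewhere, and Cox7b2 and Cox8c had none. The other untested members were the gene copies Ndufa11b, Ndufb11b, Ndufb4b and Ndufb4c, with at most 6 counts in a library. RefSeq (GRCm38.p6) lists Ndufa11b and Ndufs6b as pseudogenes, and the rule kept both because their symbols do not say so. Ndufs6b, a copy of Ndufs6, was tested, with 17.0, 0.188 and 0.704 CPM in irradiated, 0.214, 0 and 0.226 in cocultured and 11.9, 9.54 and 0 in normal libraries.

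Between irradiated and normal constructs no subunit passed the test. With edgeR's quasi-likelihood test and a Benjamini-Hochberg adjusted p under 0.05 over 11980 genes, 0 of 84 members were higher and 0 lower, where 0.00835% of all genes were called higher and 0.0501% lower. At an unadjusted p under 0.05, 3 members were higher and 0 lower, against 1.59% and 8.7% of all genes. DESeq2 called 1 member, Atp5md, against 0.701% of all genes called higher and 3.01% lower, and limma voom called 0 members, against 0.0584% and 0.15% of all genes.

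The smallest p was that of Atp5md, which encodes the DAPIT protein, a small membrane subunit of ATP synthase. It had 84.1, 280.4 and 219 CPM in irradiated, 171, 193 and 142 in cocultured and 76.6, 53.2 and 58.0 in normal libraries. With this TMM scaling every irradiated and every cocultured value lay above all normal ones, although irradiated 1 (84.1 CPM) was only slightly above normal 1 (76.6 CPM). Per library total, irradiated 1 (60.9 CPM) lay below normal 1 (73.9 CPM), so that irradiated and normal overlapped, while the cocultured values (204.9, 232 and 168 CPM) stayed above the normal ones. The fitted log2 fold change was 1.64 ± 0.44 (SE) for irradiated over normal, with an edgeR adjusted p of 0.253 and a DESeq2 adjusted p of 0.021. For cocultured over normal it was 1.43 ± 0.44, with an edgeR adjusted p of 1 and a DESeq2 adjusted p of 0.312. Both comparisons use the same normal libraries. Without irradiated replicate 1 the irradiated over normal value was 2.00, with an edgeR adjusted p of 0.0276, and over all alternatives, DESeq2 included, the adjusted p ranged from 0.021 to 0.690.

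Ndufc2, an accessory subunit of the complex I membrane arm, had 75.6, 199 and 116 CPM in irradiated against 44.8, 78.4 and 49.0 in normal libraries, so that irradiated 1 lay below normal 2. Its log2 fold change was 1.18 ± 0.46 (edgeR adjusted p = 0.483). Atp5j, coupling factor 6 of the ATP synthase stalk, had 53.7, 139 and 88.7 CPM in irradiated against 46.0, 47.5 and 33.7 in normal libraries, and its log2 fold change was 1.15 ± 0.53 (edgeR adjusted p = 0.483). These Atp5j groups did not overlap with TMM, but per library total irradiated 1 (38.9 CPM) lay below normal 1 (44.4 CPM). Ndufs7, a core subunit that holds an iron-sulphur cluster next to the ubiquinone site, had 174, 118 and 175 CPM in irradiated against 35.1, 55.5 and 133 in normal libraries, and with TMM normal 3 overlapped with the irradiated range (log2 fold change 1.06 ± 0.49, edgeR adjusted p = 0.483). Per library total the Ndufs7 groups did not overlap, at 125.8, 151.3 and 217.3 CPM in irradiated against 33.9, 50.4 and 73.4 in normal libraries.

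A pair of low members had no count in any irradiated library. Atp5g2, another gene for the c subunit, had 0 counts in irradiated, 191 in cocultured and 52 in normal constructs, pooled over the libraries of each group. With the irradiated zero replaced by 3 counts, the pooled level was at least 54.5-fold lower than in cocultured and at least 32.0-fold lower than in normal constructs. Such bounds leave out the spread between libraries, which was 56, 135 and 0 counts in cocultured and 10, 42 and 0 in normal libraries. Ndufs5, an accessory subunit of complex I, had 0 counts in irradiated, 233 in cocultured and 41 in normal constructs. Its pooled level was by the same rule at least 66.5-fold lower than in cocultured and at least 25.2-fold lower than in normal constructs. Neither passed the edgeR test (adjusted p 0.483 and 0.489 against normal), and each was also at 0 in a library of both other groups. Zeros were more frequent in irradiated 2 and irradiated 3 than in the other libraries: of all tested genes 34.7% and 32% were at 0 there, against 17.1% in irradiated 1, 10.3% to 22.4% in cocultured and 5.13% to 16.2% in normal libraries. Of the 84 tested members, 3, 6 and 5 were at 0 in irradiated, 1, 2 and 2 in cocultured and 1, 0 and 3 in normal libraries. The ends of the Atp5g2 and Ndufs5 transcripts match other genes (3 and 1 genes, at 97% identity or more), so reads could be lost or shared between these genes.

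Without overlap between groups, 3 members (Atp5md, Atp5j and Uqcrb) were higher in irradiated than in normal libraries and 0 lower, against 3.94% and 11.8% of all genes. Of these 3, Uqcrb alone was also without overlap per library total. The median log2 fold change of the 84 tested members was 0.08, beside -0.21 over all tested genes, and 47 of 84 had a positive and 37 a negative sign, against 41.8% and 58.2% of all genes. Among genes of at least 50 CPM on average the medians lay closer, at 0.08 for 73 members and -0.08 for all 3145. With library totals these were 0.51 and 0.32. Complex medians were -0.01 for the 37 complex I members, 0.37 for 4 of complex II, 0.06 for 9 of complex III, -0.01 for 14 of complex IV and 0.24 for 17 of complex V. With library totals in place of TMM the median of all tested genes moved to 0.14 and that of the members to 0.51, and 14 members were higher without overlap (5.37% of all genes) and 0 lower (8.18%). Without normal replicate 3 the members' median was 0.63.

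**Figure D4:**
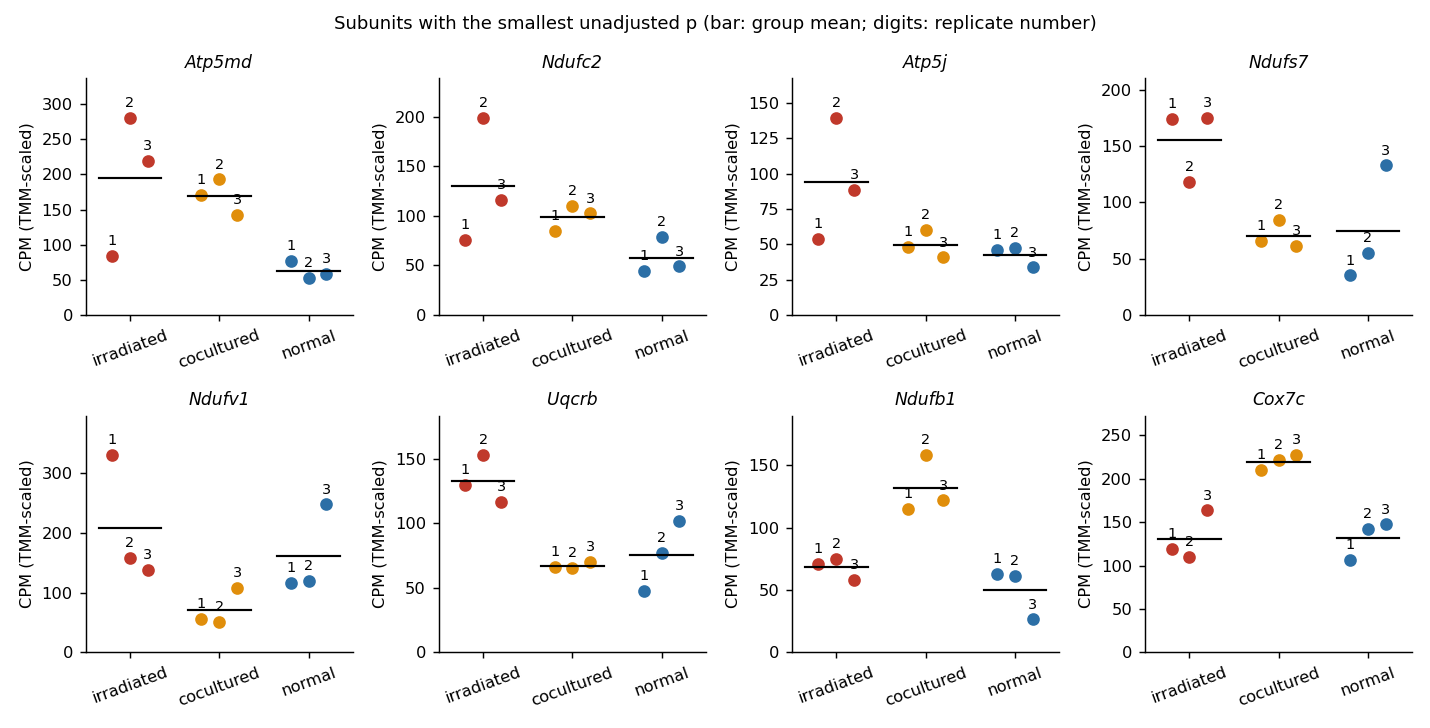
Drawn are 8 of the subunits that were among the 6 with the smallest unadjusted p in a comparison. Atp5g2, Ndufs5, Uqcr11, Cox6a2 and Ndufb11 were also among these and are not drawn. The y axis is TMM-scaled CPM (from 0) for each irradiated, cocultured and normal library, with group means as bars and replicate numbers as digits. On this scale Atp5md is above all normal libraries in every irradiated and cocultured library (per library total irradiated 1 is not), and Cox7c is above both other groups in every cocultured library.

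Between cocultured and normal constructs edgeR called 0 members and 0 genes in all, so the background was 0% in either direction. At an unadjusted p under 0.05 by the same test, 3 members were higher and 3 lower, against 0.851% and 3.26% of all genes. DESeq2 and limma voom called 0 members, where DESeq2 called 0.0668% of all genes higher and 0.634% lower and limma voom 0%.

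After Atp5md the smallest p belonged to Ndufb1, a small accessory subunit of the complex I membrane arm, at 115, 158 and 122 CPM in cocultured against 62.9, 61.1 and 26.5 in normal libraries. The groups did not overlap, and the log2 fold change was 1.39 ± 0.46 (edgeR adjusted p = 1). Cox7c, a small complex IV subunit with no muscle isoform, had 209.7, 222 and 227 CPM in cocultured against 107, 143 and 147.5 in normal libraries (log2 fold change 0.73 ± 0.32, edgeR adjusted p = 1). Its 3 cocultured values were close together and above every irradiated value too, which were 119, 109.6 and 164 CPM.

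Lower in cocultured constructs without overlap was Ndufv1, the subunit that binds NADH and FMN, at 56.5, 51.0 and 107 CPM in cocultured against 116, 120.0 and 247 in normal libraries (log2 fold change -1.17 ± 0.48, edgeR adjusted p = 1). Per library total cocultured 3 (126 CPM) lay above normal 1 and normal 2 (112 and 109.1 CPM), and the groups overlapped. Uqcr11, the smallest complex III subunit, had 50.5, 67.4 and 33.7 CPM in cocultured against 58.7, 117.5 and 166 in normal libraries, with overlap (log2 fold change -1.17 ± 0.50, edgeR adjusted p = 1). The difference for Cox6a2 (log2 fold change -2.90 ± 1.32, edgeR adjusted p = 1) rested on normal 3 alone, and without that library it was 0.39.

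Without overlap, 7 members were higher and 3 lower, against 5.66% and 7.51% of all genes. The median log2 fold change of the members was -0.27, beside -0.07 over all tested genes, and 29 of 84 were positive and 55 negative, against 46.9% and 53% of all genes. Among genes of at least 50 CPM on average the medians were -0.28 for 73 members and -0.03 for all 3145. With library totals these were 0.42 and 0.53. Complex medians were -0.38 for complex I, 0.22 for II, -0.16 for III, 0.01 for IV and -0.16 for V. The members' sign turned with the scaling and with normal 3: the median was 0.43 with library totals, where that of all genes was 0.48, and 0.29 without normal replicate 3. By library totals 27 members were higher without overlap (15.6% of all genes), among them the 7 found with TMM, and 0 lower (3.57%).

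Between irradiated and cocultured constructs edgeR called 0 members, against 0% of all genes higher and 0.0334% lower. At an unadjusted p under 0.05 by the same test, 4 members were higher and 3 lower, against 2.25% and 7.33% of all genes. DESeq2 and limma voom called 0 members, where DESeq2 called 1.14% of all genes higher and 2.8% lower and limma voom 0.184% and 0.693%.

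Ndufv1 had the smallest p, at 329, 157 and 138 CPM in irradiated against 56.5, 51.0 and 107 in cocultured libraries without overlap. Its log2 fold change was 1.54 ± 0.48, with an edgeR adjusted p of 0.493 and a DESeq2 adjusted p of 0.0681, and over all alternatives the adjusted p ranged from 0.0681 to 0.718. Uqcrb, a ubiquinone-binding accessory subunit of complex III, had 129.5, 153 and 117 CPM in irradiated against 66.0, 65.8 and 70.2 in cocultured libraries (log2 fold change 0.98 ± 0.41, edgeR adjusted p = 0.493). The cocultured values lay close together and below the irradiated range.

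Ndufs7 had 174, 118 and 175 CPM in irradiated against 66.1, 84.3 and 61.3 in cocultured libraries (log2 fold change 1.14 ± 0.49), and Ndufb11, an accessory subunit of the membrane arm, had 136, 140.2 and 71.9 CPM against 56.8, 51.4 and 44.2 (log2 fold change 1.19 ± 0.51). Both had an edgeR adjusted p of 0.493 and no overlap. Cox7c had the opposite sign, with a log2 fold change of -0.75 ± 0.32 (edgeR adjusted p = 0.493).

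Without overlap, 6 members were higher and 2 lower, against 3.9% and 10.6% of all genes. The median log2 fold change of the members was 0.29, beside -0.10 over all tested genes, and 64 of 84 were positive and 20 negative, against 46.7% and 53.3% of all genes. Among genes of at least 50 CPM on average the medians were 0.39 for 73 members and -0.05 for all 3145. With library totals these were 0.14 and -0.21. Complex medians were 0.27 for complex I, 0.15 for II, 0.38 for III, 0.12 for IV and 0.46 for V. With library totals the members' median was 0.13 and that of all genes -0.28, and 6 members were higher (2.19% of all genes) and 6 lower (12.8%) without overlap, which include 5 of the 6 higher and both lower members found with TMM. The higher member lost by library totals was Atp5a1. With irradiated 1 and normal 3 both left out the members' median was -0.01, beside -0.32 over all tested genes.

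**Figure D5:**
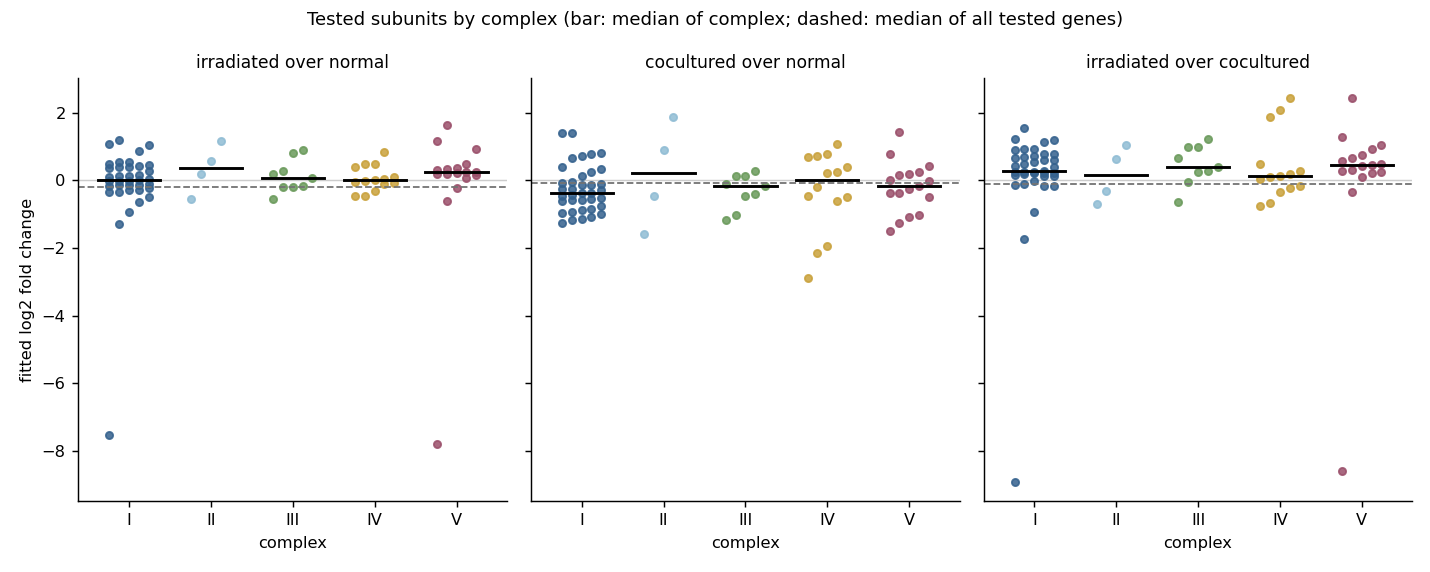
Fitted log2 fold change (y axis) of 81 tested subunits by complex (Cycs, Cox7a2l and Ndufs6b not drawn) in the 3 comparisons, with complex medians as black bars and the median of all tested genes as a dashed line. Most points lie within 2 log2 units of 0, and the points near -8 are Ndufs5 and Atp5g2, which had no counts in irradiated libraries.

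Among genes that build or feed the chain edgeR and limma voom called none in any comparison. DESeq2 called 3 of them lower in irradiated than in normal and than in cocultured constructs, Bcs1l, Pprc1 and Ssbp1, all of which had no count in irradiated libraries. They were 1 of 47 tested assembly factors and 2 of 19 tested regulators of mitochondrial biogenesis. Over all tested genes DESeq2 called 3.01% lower against normal and 2.8% lower against cocultured constructs. In irradiated 2 and irradiated 3, 34.7% and 32% of all tested genes were at 0. Of 51 assembly factors 47 were tested, and their median log2 fold change was 0.13 for irradiated over normal, -0.16 for cocultured over normal and 0.47 for irradiated over cocultured. With library totals these medians were 0.40, 0.51 and 0.32, so that the sign for cocultured over normal turned. Among these, the copper chaperone Cox17 averaged 48.6 CPM in irradiated, 126 in cocultured and 102 in normal constructs (irradiated over cocultured -1.37, edgeR adjusted p = 0.493), and Bcs1l, which inserts the Rieske protein into complex III, had no count in irradiated libraries and averaged 11.2 CPM in cocultured and 14.7 in normal constructs (DESeq2 adjusted p 0.0146 against normal and 0.0223 against cocultured, edgeR adjusted p 0.483 and 0.493). Its cocultured and normal values ranged down to 0 and 0.821 CPM.

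All 18 genes of the tricarboxylic acid cycle list were tested. Their median was -0.22 for irradiated over normal, -0.36 for cocultured over normal and 0.17 for irradiated over cocultured, and all 3 signs turned with library totals (0.24, 0.37 and -0.06). Citrate synthase, Cs, averaged 53.4 CPM in irradiated, 122 in cocultured and 36.2 in normal constructs, without overlap for cocultured over normal (1.75, edgeR adjusted p = 1). Idh2, the mitochondrial NADP-linked isocitrate dehydrogenase, had the opposite sign, at 103 CPM in irradiated, 41.1 in cocultured and 126 in normal constructs (cocultured over normal -1.61, edgeR adjusted p = 1).

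Of 22 regulators of mitochondrial biogenesis 19 were tested, with medians of -0.38 for irradiated over normal, 0.16 for cocultured over normal and 0.40 for irradiated over cocultured. With library totals they were 0.25, 0.56 and 0.28, so that the sign for irradiated over normal turned. Ssbp1, the mitochondrial single-stranded DNA-binding protein, had no count in irradiated libraries and averaged 25.6 CPM in cocultured and 11.5 in normal constructs, with a value of 0 in normal 3 (DESeq2 adjusted p 0.0096 against normal and 0.00167 against cocultured, edgeR adjusted p 0.463 and 0.493). Pprc1, a coactivator related to PGC-1alpha, likewise had none in irradiated and averaged 9.41 CPM in cocultured and 8.13 in normal constructs (DESeq2 adjusted p 0.0149 against normal and 0.0112 against cocultured, edgeR adjusted p 0.483 and 0.493). Tfam, which packages mitochondrial DNA, averaged 65.9 CPM in irradiated, 26.8 in cocultured and 31.4 in normal constructs (irradiated over cocultured 1.30, edgeR adjusted p = 0.576).

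Among 16 carrier and cristae genes, all tested, the medians were 0.21 for irradiated over normal, 0.16 for cocultured over normal and 0.08 for irradiated over cocultured. With library totals they were 0.67, 0.82 and -0.15, and the last turned sign. Slc25a5, an ADP/ATP carrier of growing cells, averaged 48.4 CPM in irradiated, 75.6 in cocultured and 17.3 in normal constructs (cocultured over normal 2.13, edgeR adjusted p = 1). Slc25a4, the muscle ADP/ATP carrier, had 1582, 473 and 376 CPM in irradiated, 461, 309 and 423 in cocultured and 189.6, 309.5 and 2502 in normal libraries (cocultured over normal -1.33, edgeR adjusted p = 1). Without normal 3 the cocultured over normal value was 0.68.

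Mitochondrially encoded partner subunits were highest in the libraries with the most sarcomere counts. Of 13, 7 were tested, and the 13 together took 16.8%, 6.99% and 6.25% of counts in irradiated, 5.43%, 4.10% and 6.54% in cocultured and 2.30%, 2.75% and 24.5% in normal libraries. Only 6 to 8 of the 13 had a count in any 1 library, so the sums do not cover the whole list. The libraries with the most sarcomere counts were irradiated 1 and normal 3. ND4, a complex I core subunit, had 123900, 27140 and 21750 CPM in irradiated, 18740, 11220 and 23840 in cocultured and 6716, 9021 and 250900 in normal libraries. Its log2 fold changes were -0.63 for irradiated over normal and -2.31 for cocultured over normal (edgeR adjusted p = 1 in both), and without normal 3 both turned, to 2.86 and 1.19. ND6, another complex I subunit, was lowest in normal 3 of its group, at 43.0, 0 and 1.06 CPM in irradiated, 12.1, 18.4 and 7.80 in cocultured and 15.4, 32.0 and 7.12 in normal libraries. Mitochondrial messages are read here through oligo-dT priming, so their levels are set beside nuclear ones only as shares of a library.

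Other genes that match the ends of subunit transcripts limit what can be said of individual members. The last 300 bases of 24 of 85 members with an annotated transcript matched another gene at 97% identity or more over at least 75 bases. Atp5l, a membrane subunit of ATP synthase, had the most such matches (9) and was at 0 in 4 libraries, with an average of 6.74 CPM. Some matches are not annotated as pseudogenes, such as Braf for Ndufb2 and Smim27 for Ndufb6, so a match need not be a copy of the subunit gene. Reads that match several genes may not have been counted, and how they were treated is not given in the sources used here. Cox7c and Uqcrb, named above, also have such matches (2 and 3). Atp5o has 3, and Atp5j, Ndufb8, Ndufb11, Uqcr11, Cox5b and Cox6c have 1 each. Atp5md and Ndufb1 could not be looked up, because the annotation used lists no transcript under these symbols.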

How the data were processed

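RNA from 9 engineered muscle constructs was profiled by QuantSeq 3′ mRNA FWD sequencing from 100 ng of total RNA (single-end 75 bp reads, NextSeq), per the labels' protocols. The submitters' processing notes name the builds GRCm39 and mm39 and the tools HTSeq, STAR and FastQC, with no version or role. Which annotation and strand setting were used is not stated there. Each deposited file gives raw counts by gene symbol for 1 library, per the file headers and its whole-number values. Column names carry a replicate number 1 higher than the labels do, so files were assigned to samples by the series' own record. Samples were grouped by title.

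In R 4.3.3, edgeR 4.0.16 was run on the counts: 11980 genes passed filterByExpr, libraries were scaled by TMM, and groups were compared by glmQLFTest in a quasi-likelihood fit of the 9 libraries together (group term, 6 residual degrees of freedom). P-values were adjusted by Benjamini-Hochberg over all tested genes, and genes with an adjusted p under 0.05 were called. Standard errors are approximate, being the fold change on the log2 scale over the root of the F statistic. The common dispersion had a square root of 1.32. DESeq2 1.42.0 and limma 3.58.1 (voom) were alternatives, together with a replicate block, other filters and scalings, fits to 6 libraries, leaving out each library or both irradiated 1 and normal 3, and removal of mitochondrially encoded genes with Gm26917. The test was also run on simulated counts, drawn independently for each library around a common mean per gene. Such counts hold no libraries that stand apart as irradiated 1 and normal 3 do, so nothing is concluded from them. No within-group pair of libraries held identical values, and none was treated as a duplicate.

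Members and gene lists were chosen with earlier results of these data known. Members named are, in each comparison, the 6 with the smallest unadjusted p, the 2 with the highest mean CPM in each complex, the isoform pairs, Ndufa4l2, Cox4i2, Cox7a2l and Cycs, and up to 3 genes of each related list with the smallest p. Those named by their ratio between libraries, Gm26917, Atp5l, Ndufs6b, ND6 and marker genes were chosen after their values were seen. Isoform shares carry exact (Clopper-Pearson) 95% intervals. Promoters came from RefSeq (GRCm38.p6), and transcript ends from GENCODE transcripts of GRCm38, compared with BLAST. Both are of another build than the counts and were used by symbol only.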

Additional observations from a re-analysis of the deposited data

How the results depend on the processing

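The call of no member held in most settings. Exceptions were DESeq2, which called 1 member for irradiated over normal (Atp5md, log2 fold change 1.72), the unfiltered table, where edgeR called 1 member, Cox6a2, for cocultured over normal (-2.89) and for irradiated over cocultured (2.43), and leaving out libraries, with 0 to 1 members for irradiated over normal (Atp5md, 2.00, without irradiated replicate 1). Replicate numbers did not pair the libraries (correlations of same-numbered deviations -0.071 to 0.0537). With a replicate block edgeR called 0 members, and 23, 0 and 12 of all genes for irradiated over normal, cocultured over normal and irradiated over cocultured, against 7, 0 and 4 without it, and Cox6a2 for irradiated over normal turned to 0.35. All genes called for the same comparisons were 445, 84 and 473 with DESeq2, 25, 0 and 105 with voom, 130, 52 and 153 unfiltered, and 20, 1 and 21 without both normal 3 and irradiated 1; for the first and last they were 0 and 0 in fits of 6 libraries. The last gave 9 with library totals. Leaving out libraries in turn gave 6 to 147, 0 and 2 to 97.

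The members' median ranged over left-out libraries from -0.25 to 0.63 for irradiated over normal, from -0.49 to 0.29 for cocultured over normal and from -0.03 to 0.54 for irradiated over cocultured. For cocultured over normal it was 0.43 with library totals and 0.29 without both libraries. Shares of counts, averaged by group, were 1.93% in irradiated, 1.503% in cocultured and 1.59% in normal constructs without mitochondrially encoded genes and Gm26917, and 1.38% to 1.52%, 1.24% to 1.29% and 0.833% to 1.17% of library totals with a library left out.

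The fitted direction of the muscle isoforms changed with the setting for irradiated over normal and cocultured over normal, and that of Cox8b also for irradiated over cocultured, where Cox6a2 and Cox7a1 stayed positive in every setting run. For irradiated over normal, Cox7a1 turned to 0.41 with voom and 0.43 with library totals, Cox8b to 0.22 with library totals, and without both libraries Cox6a2 to 0.43 and Cox7a1 to 0.96. For cocultured over normal without both, Cox6a2, Cox7a1 and Cox8b turned to 0.39, 0.48 and 0.10. For irradiated over cocultured, Cox8b turned to -3.33 with voom and -1.62 without both. With a library left out, Cox6a2 ranged from -2.87 to 2.82 for irradiated over normal, -3.43 to 0.39 for cocultured over normal and 0.03 to 2.98 for irradiated over cocultured, Cox7a1 from -1.66 to 2.53, -2.81 to 0.48 and 0.47 to 2.74, and Cox8b from -3.58 to 1.97, -2.40 to 0.10 and -1.64 to 2.46. The log2 isoform ratios ranged from -2.07 to 1.22, -3.33 to -0.28 and 0.10 to 2.75 for Cox6a, from 0.12 to 1.57, -1.55 to -0.01 and 1.09 to 2.16 for Cox7a, which kept its signs, and from -6.28 to 0.21, -2.16 to 0.15 and -4.92 to 1.57 for Cox8, and the Cox8 ratio for cocultured minus normal was 0.15 without both. The cause of these changes was not tested. For members with few counts, such as Atp5g2 and Ndufs5, folds against 0 counts are bounds on pooled counts that leave out the spread between libraries. Irradiated 2 had the largest library total (8290468 counts) and the fewest genes with a count (8306). Normal 2 had the smallest total (4840993 counts) and the most genes with a count (14159). The cause of the zeros was not tested.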
